A study of Homo sapiens with 2 samples.

Results

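The LIN28, IGF2BP and HMGA2 oncofetal axis was described in parental and CARM1 knockout (CARM1 KO) cells of A1847, a human ovarian cancer cell line. Its 10 members, of 57736 genes in the deposited table, were named as a list: the LIN28 paralogs LIN28A and LIN28B, the exonuclease gene DIS3L2, the IGF2BP family (IGF2BP1, IGF2BP2, IGF2BP3), the HMGA family (HMGA1, HMGA2), and SALL4 and L1TD1. The list was chosen by a rule that names its genes with results of this same contrast known. Every value of a member below is therefore a description without a test.

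The groups were wild-type A1847 cells, the parental control, and A1847 cells in which CARM1 was edited with CRISPR from a lentiviral vector carrying a guide RNA against the gene. CARM1 is an arginine methyltransferase and transcriptional coactivator. The knockout is 1 clone, and each group is 1 library of ribosome-depleted total RNA, so a difference between the libraries has no replicate check and cannot be told apart from a difference between a clone and the population it came from. Both were grown in the same medium, and the labels name no drug. The paper's methods describe puromycin selection for cells infected with viruses that carry the resistance gene. Neither library is a vector control, so viral infection and any selection cannot be told apart from the edit.

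LIN28A and LIN28B are RNA-binding proteins of embryonic and fetal cells that block the maturation of the let-7 family of microRNAs, and let-7 in turn represses the LIN28 transcripts. Mature let-7 pairs through its seed with sites in 3' untranslated regions (3' UTRs), and the transcripts of HMGA2 and the IGF2BP family are among its well-known targets. Members of this circuit are usually silent in adult tissue and are expressed again in many tumours, which is why they are called oncofetal.

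The let-7 sequences are shown because they define the sites described below. In RefSeq (GRCh38.p14) the 9 mature let-7 family members matched here had 1 seed in common, bases 2 to 8, given in capitals in a sample of 4 of them.
let-7a: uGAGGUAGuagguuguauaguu
let-7d: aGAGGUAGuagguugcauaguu
let-7g: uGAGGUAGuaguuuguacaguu
miR-98: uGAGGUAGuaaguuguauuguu

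LIN28 proteins are known to bind a GGAG motif near the end of the precursor's loop. Of the 12 let-7 hairpins in RefSeq, 9 held these letters between the 2 arms, and 3 (MIRLET7A3, MIRLET7B and MIR98) did not. A hairpin of each kind is shown, with the motif in capitals where it is present.
MIRLET7G: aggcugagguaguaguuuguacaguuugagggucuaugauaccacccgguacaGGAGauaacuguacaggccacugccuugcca
MIRLET7A3: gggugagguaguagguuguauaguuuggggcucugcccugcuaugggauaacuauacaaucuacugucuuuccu

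The match to the let-7 seed in a transcript is the 7-mer CTACCTC, and the 8-mer CTACCTCA adds the A that lies opposite the first base of let-7. These letters were searched on the transcribed strand in the annotated 3' UTR of 1 canonical transcript per gene (GENCODE 44 lifted to GRCh37). A match was found in 8 of the 10 members and an 8-mer in 7 of them. Among all 18761 protein-coding genes with an annotated 3' UTR, 9.81% held a match and 3.77% an 8-mer. The members include known let-7 targets by choice, so this difference was built into the list. The first 8-mer of each member that has one is shown as a window of 22 bases, 5' to 3' on the transcript, with the match in capitals.
LIN28A, plus strand, chr1:26753840-26753861: cacagcctattgaaCTACCTCA
LIN28B, plus strand, chr6:105526688-105526709: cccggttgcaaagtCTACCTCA
IGF2BP1, plus strand, chr17:47128424-47128445: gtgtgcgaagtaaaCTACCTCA
IGF2BP2, minus strand, chr3:185362008-185362029: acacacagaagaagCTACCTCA
IGF2BP3, minus strand, chr7:23351414-23351435: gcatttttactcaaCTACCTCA
HMGA2, plus strand, chr12:66357079-66357100: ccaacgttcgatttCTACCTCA
SALL4, minus strand, chr20:50399462-50399483: aagctttaatttatCTACCTCA

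LIN28B, IGF2BP1 and HMGA2 each had 4 matches, a number reached by 12 of the 18761 genes (0.064%). LIN28B held 2 8-mers, IGF2BP1 held 3 and HMGA2 held 1. HMGA1 had 1 match of 7 letters, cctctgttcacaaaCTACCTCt at chr6:34213607-34213628 on the plus strand. DIS3L2 and L1TD1 had none in 3' UTRs of 562 and 956 bases. A match is a run of letters and not a measured binding site, and mature let-7 was not measured in these libraries.

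**Figure D1:**
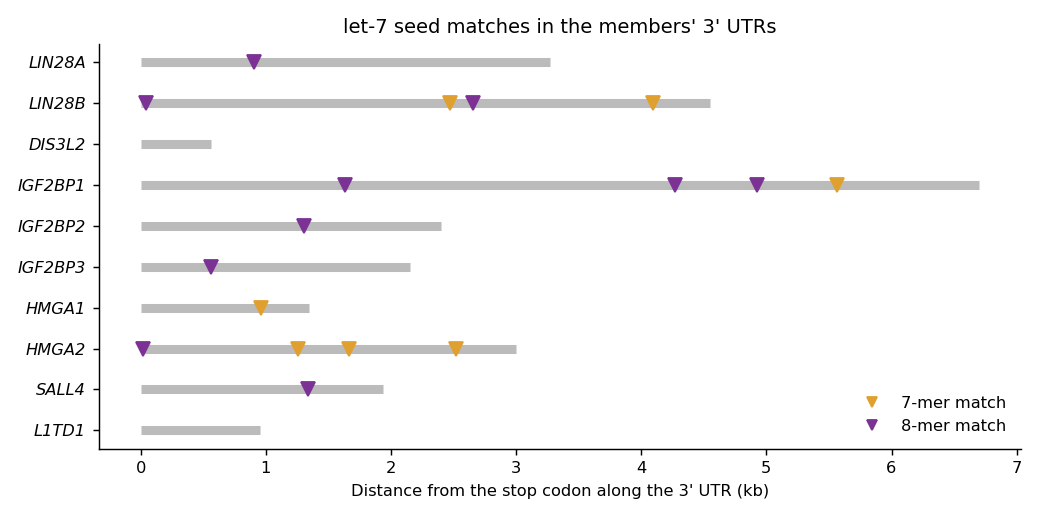
The 3' UTR of each member is drawn as a grey bar against distance from the stop codon in kb, with triangles at 7-mer and 8-mer matches to the let-7 seed. LIN28B, IGF2BP1 and HMGA2 carry 4 matches each, and DIS3L2 and L1TD1 carry none.

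Levels are given as CPM, the reads of a gene scaled to the same total in both libraries. A gene is called lower or higher below where the ratio of its counts, scaled by the TMM method, was above 3-fold, among genes whose reads summed to at least 10 over the libraries. Brackets give exact 95% binomial intervals of the ratio, which cover counting error only. By this rule 5 of the 10 members (50%) were lower in CARM1 KO cells, 0 were higher and 5 were neither. Of all 18563 genes tested, 11.7% were lower and 12.8% were higher, and of the 14140 protein-coding genes 9.21% were lower and 12.7% were higher. These shares are printed for scale, and since the list was selected on this contrast nothing is read from the difference. The members called lower were LIN28A, LIN28B, IGF2BP3, HMGA2 and SALL4, and all 5 have an 8-mer. IGF2BP1, just short of 3-fold, and IGF2BP2, close to equal in the libraries, also have one.

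**Figure D2:**
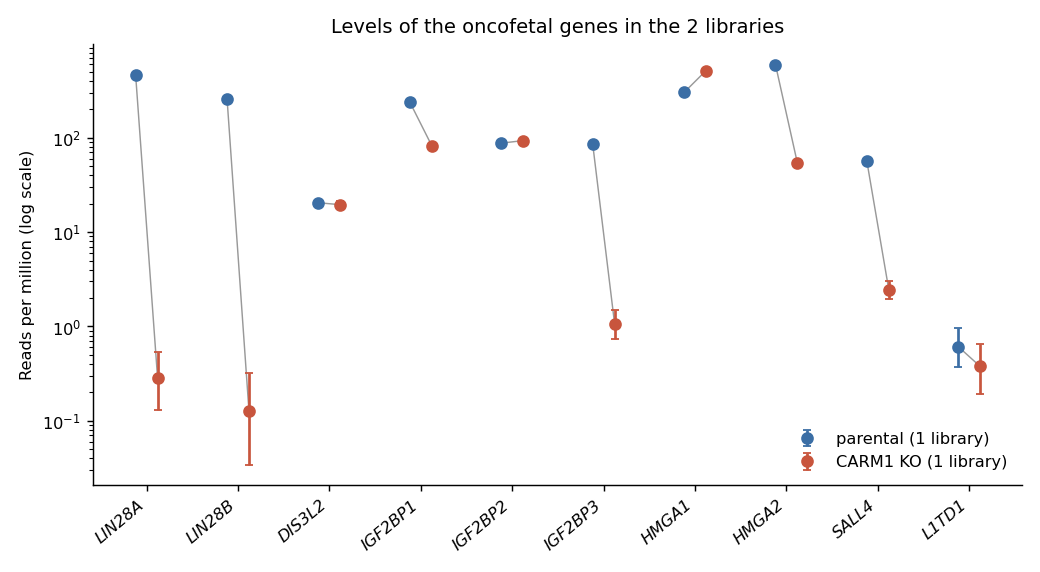
CPM of each member in the parental and the CARM1 KO library are plotted on a log axis, with exact 95% intervals for counting error that are mostly smaller than the points. LIN28A and LIN28B stand at 458 and 258.5 in the parental library and at 0.282 and 0.126 in the CARM1 KO library, while DIS3L2, IGF2BP2 and HMGA1 stay within 1.71-fold.

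The LIN28 paralogs had the largest ratios of the list. LIN28A (ENSG00000131914, chr1:26737308-26756219, plus strand, 4 exons) had 14275 parental reads and 9 CARM1 KO reads; read pairs below keep this order, parental first. This was 458 against 0.282 CPM, or 1624-fold lower in CARM1 KO cells (855 to 3552). LIN28B (ENSG00000187772, chr6:105384491-105531207, plus strand, 4 exons), its paralog on another chromosome, had 8049 and 4 reads, a ratio of 2060-fold (804 to 7563). Their intervals overlap, so at this depth the ratios of the paralogs cannot be ordered. Ranked by log2 ratio with a prior count of 2, LIN28B was 15th and LIN28A 16th from the bottom of the 18563 genes tested. With so few reads left in CARM1 KO cells, a few cells that still express these genes and a low level in all cells cannot be told apart, here or for any member.

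Levels of different genes were compared per length, as CPM divided by the length of the canonical transcript in kilobases (RPKM). In parental cells LIN28A stood at 115 RPKM, above 96.6% of protein-coding genes tested, and LIN28B at 47.5 RPKM, above 90.5%. In CARM1 KO cells they stood at 0.0710 and 0.0230 RPKM, at the 5.5th and 2.7th percentiles. Summed over the paralogs, the LIN28 level went from 163 to 0.0940 RPKM, 1731-fold lower. LIN28A made up 70.8% of this sum in parental and 75.5% in CARM1 KO cells, the latter on 9 reads.

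DIS3L2 (ENSG00000144535, chr2:232825955-233209060, plus strand) encodes the exonuclease that degrades let-7 precursors after LIN28 has had them tailed with uridines. It had 638 and 623 reads, a ratio of 1.05-fold lower (0.937 to 1.17). Its interval includes equal levels, and the transcript of the circuit's decay enzyme was thus measured at close levels in libraries whose summed LIN28 level differed 1731-fold.

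The IGF2BP family binds mRNAs and affects their stability, location and translation, and its members were measured at 3 different outcomes. IGF2BP1 (ENSG00000159217, chr17:47074747-47133507, plus strand) had 7432 and 2627 reads, 239 against 82.4 CPM, and was 2.90-fold lower (2.77 to 3.03). It lies just outside the 3-fold threshold, and its interval spans it. IGF2BP3 (ENSG00000136231, chr7:23349828-23510110, minus strand) had 2685 and 34 reads and was 80.9-fold lower (57.7 to 117). IGF2BP2 (ENSG00000073792, chr3:185360918-185542830, minus strand), the paralog that adult tissues also express, had 2734 and 2980 reads, a ratio of 1.07-fold higher (1.01 to 1.12).

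In parental cells the levels of the IGF2BP paralogs were close per length, at 27.1 RPKM for IGF2BP1, 20.5 for IGF2BP2 and 20.2 for IGF2BP3. In CARM1 KO cells they were 9.37, 21.8 and 0.250 RPKM. The summed level of the family was 2.16-fold lower, 67.8 against 31.4 RPKM. IGF2BP2 supplied 30.2% of the sum in parental cells and 69.4% in CARM1 KO cells, and IGF2BP3 went from 29.8% to 0.794%. The number of let-7 matches does not follow the ratios within the family, since IGF2BP1 has 4, and IGF2BP2 and IGF2BP3 have 1 each.

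The promoters of IGF2BP3 and IGF2BP2 are shown because these paralogs had like levels in parental cells and parted in CARM1 KO cells. Each window runs from 250 bases before to 50 after an annotated start (RefSeq, GRCh38.p14), and capitals mark CACGTG, the E-box hexamer, which reads the same on both strands. The motif was chosen after the sequences were seen.
IGF2BP3, minus strand, chr7:23470442-23470741: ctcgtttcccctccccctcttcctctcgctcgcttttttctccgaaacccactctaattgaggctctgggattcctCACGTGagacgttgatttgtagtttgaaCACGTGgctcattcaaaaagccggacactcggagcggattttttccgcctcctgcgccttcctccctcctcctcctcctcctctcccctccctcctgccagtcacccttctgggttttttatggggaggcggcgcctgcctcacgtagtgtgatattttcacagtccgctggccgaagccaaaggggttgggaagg
IGF2BP2, minus strand, chr3:185824993-185825292: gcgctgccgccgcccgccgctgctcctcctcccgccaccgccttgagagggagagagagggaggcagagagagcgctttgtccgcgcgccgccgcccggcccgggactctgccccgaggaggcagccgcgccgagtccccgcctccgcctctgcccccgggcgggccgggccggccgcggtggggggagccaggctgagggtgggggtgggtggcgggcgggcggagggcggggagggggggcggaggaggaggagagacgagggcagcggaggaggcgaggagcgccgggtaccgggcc

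The IGF2BP3 window held 17 CpG dinucleotides at 56.3% GC, and 54.0% of the 35116 promoters in the table had fewer. The IGF2BP2 window shown held 38 CpG at 80.7% GC, more than 90.1% of promoters. A second annotated IGF2BP2 start, at chr3:185821093-185821392 and not shown, held 3 CpG at 35.0% GC, more than 18.2% of promoters, so the order of IGF2BP2 and IGF2BP3 in CpG depends on the start taken. IGF2BP3 had 2 copies of CACGTG and both IGF2BP2 windows had 0, where 7.26% of all promoters hold at least 1 copy and 0.664% hold 2 or more. One of the LIN28B windows, the one with 8 CpG, also held 1 copy. The other LIN28B window and the windows of DIS3L2, HMGA1 and L1TD1 held 0. Because the motif was chosen after the sequences were seen, nothing is read from these shares. The table held 9 promoters of 6 members, and no binding or methylation was measured with these RNA counts. It held none for LIN28A, IGF2BP1, HMGA2 and SALL4, so these were not searched for the hexamer.

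The HMGA proteins bend AT-rich DNA and shape chromatin, and HMGA2 is a textbook target of let-7. HMGA2 (ENSG00000149948, chr12:66218240-66360071, plus strand) had 18603 and 1718 reads, 597 against 53.9 CPM. It was 11.1-fold lower (10.6 to 11.7), the smallest ratio among the 5 members called lower. HMGA1 (ENSG00000137309, chr6:34204650-34214008, plus strand) had 9425 and 16460 reads and a ratio of 1.71-fold higher (1.66 to 1.75), under the threshold. HMGA2 remained a well-measured transcript in CARM1 KO cells, at 13.1 RPKM and the 69.4th percentile of protein-coding genes, unlike the LIN28 genes and IGF2BP3.

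Summed per length, the family differed by 1.07-fold, 303 against 282 RPKM, while its makeup shifted. HMGA1 supplied 52.1% of the sum in parental cells and 95.4% in CARM1 KO cells, and HMGA2 went from 47.9% to 4.64%. In both the IGF2BP and the HMGA family, the member lower in CARM1 KO cells by the most was an oncofetal one, and the paralog with the broader expression in adults, IGF2BP2 or HMGA1, made up most of what was left.

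SALL4 (ENSG00000101115, chr20:50398870-50419060, minus strand) encodes a zinc-finger transcription factor of stem cells and fetal liver. It had 1753 and 78 reads, 56.3 against 2.45 CPM, and was 23.0-fold lower (18.3 to 29.3). A ratio at least as low as that of SALL4 was found for 250 protein-coding genes, or 1.77% of those tested. L1TD1 (ENSG00000240563, chr1:62660521-62678000, plus strand), an RNA-binding partner of LIN28A in pluripotent stem cells, had 19 and 12 reads. Its level was 0.159 and 0.0982 RPKM, and its ratio of 1.62-fold lower (0.747 to 3.66) could not be distinguished from equality at this depth.

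The order of the parental levels was HMGA1 (158 RPKM), HMGA2 (145), LIN28A (115), LIN28B (47.5), IGF2BP1 (27.1), IGF2BP2 (20.5), IGF2BP3 (20.2), SALL4 (10.8), DIS3L2 (6.09) and L1TD1 (0.159). In CARM1 KO cells it was HMGA1 (269 RPKM), IGF2BP2 (21.8), HMGA2 (13.1), IGF2BP1 (9.37), DIS3L2 (5.81), SALL4 (0.470), IGF2BP3 (0.250), L1TD1 (0.0982), LIN28A (0.0710) and LIN28B (0.0230). With 1 library a group there is no spread over samples to set against neighbours in these orders. IGF2BP2 and IGF2BP3 in parental cells were the closest pair in the order.

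Of 18 genes that make, tail or destroy let-7, 1 was called lower and 0 higher. Their median log2 ratio was -0.26 beside -0.02 for all genes tested. The lower gene was TRIM71, a stem cell ubiquitin ligase and itself a let-7 target, with 2845 and 104 reads (28.0-fold lower, 23.0 to 34.4). The uridyl transferases that LIN28 recruits had ratios near 1: TUT4 had 2689 and 2529 reads, and TUT7 had 1477 and 1967 reads. DICER1, which cuts the precursor, had 9881 and 4095 reads, a ratio of 2.47-fold lower (2.38 to 2.56) that did not pass the threshold. DROSHA, which makes the first cut, had 2075 and 1709 reads. Also under the threshold, PRKRA was 1.87-fold and XPO5 1.64-fold lower, and AGO2 was 1.77-fold higher. The genes of the list with the most reads were the helicase genes DDX17 (24260 and 11463 reads) and DDX5 (24230 and 21062 reads) and the export factor gene RAN (20932 and 25772 reads), and none of them passed 3-fold.

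All 12 let-7 loci annotated as microRNAs had 0 reads in both libraries, so these libraries carry no reading of let-7 itself. A count of 0 allows up to 3 reads per locus. Of the 20 let-7 loci and host transcripts, 7 had enough reads, and 1 was lower. MIR99AHG, the host of let-7c, had 465 and 33 reads and was 14.4-fold lower (10.1 to 21.2). MIRLET7BHG had 61 and 164 reads, 2.63-fold higher (1.95 to 3.58) and under the threshold. WDR82, which lies at the let-7g locus, and HUWE1, which hosts miR-98, had 5594 and 5719 reads and 8931 and 8230 reads. A host transcript's level is not that of the microRNA, whose release is the step LIN28 blocks.

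Among 24 genes known as let-7 targets, 6 were lower, 2 were higher and 16 were neither. TRIM71 and DICER1, counted above, are among the 24. The median log2 ratio was -0.88 beside -0.02 for all genes tested. Of all genes tested 11.7% were lower and 12.8% higher, which is the scale for this and the other lists. CCND2, which encodes cyclin D2, had 73228 and 17 reads (4410-fold lower, 2754 to 7571). The orphan nuclear receptor gene NR6A1 had 2374 and 70 reads (34.7-fold, 27.4 to 44.7), and the DNA-binding factor genes ARID3A and ARID3B had 2379 and 289 reads and 1260 and 155 reads. The list's other lower genes were TRIM71, given above, and MYCN, with 21 and 0 reads, at least 7.17-fold lower against a floor of 3 reads. The higher genes were CDK6, the cyclin D partner kinase, with 1609 and 6969 reads (4.23-fold, 4.01 to 4.47), and IRS2, an insulin receptor substrate, with 122 and 615 reads (4.92-fold, 4.05 to 6.03).

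The higher calls of CDK6 and IRS2 were not made by edgeR's exact test at an assumed coefficient of variation of 0.4, described below, where 6 target genes were lower and 0 were higher. The target genes with the most reads that did not pass 3-fold were CCND1 (13219 and 19587 reads), DICER1, RRM2 (9502 and 7794 reads) and NRAS (6567 and 10161 reads). The oncogene MYC, often named with let-7, had 2548 and 1839 reads. A seed match was found in 16 of the 24 target genes, of which 4 were lower (ARID3A, ARID3B, NR6A1, TRIM71), 1 was higher (IRS2) and 11 were neither. CCND2, MYCN and CDK6, which did pass, had no match in the 3' UTR searched.

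**Figure D3:**
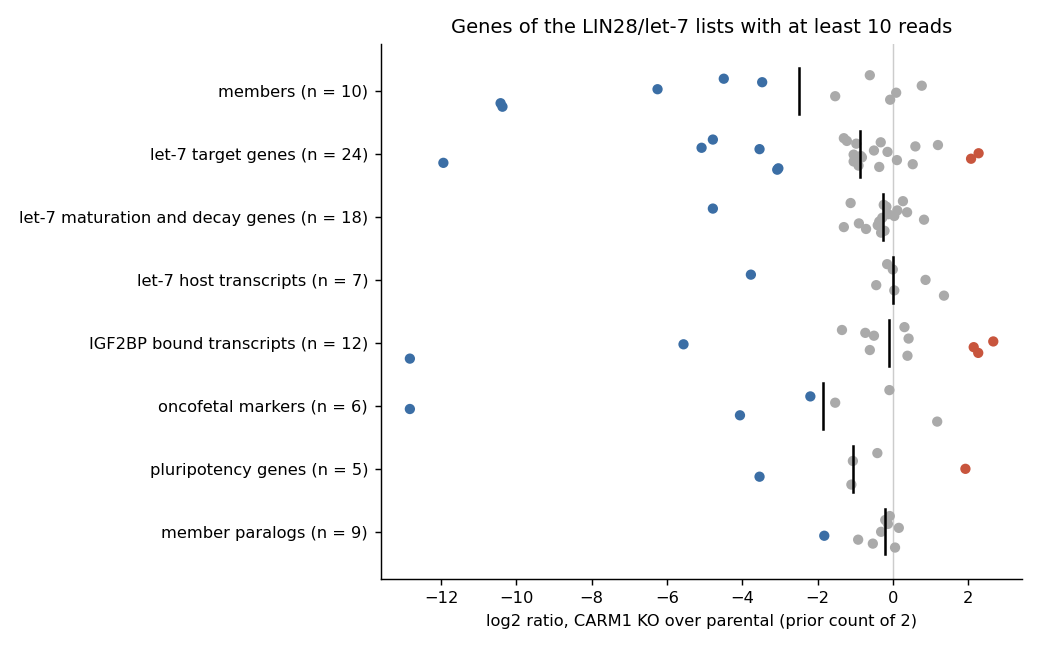
Each point is a gene with at least 10 reads, placed by its log2 ratio of CARM1 KO over parental with a prior count of 2, in rows for the members and 7 lists around them; blue is lower, red is higher, grey is neither, and black bars are list medians. The let-7 target genes run from CCND2 on the left to IRS2 on the right, around a median of -0.88, while 17 of the 18 maturation and decay genes lie within 3-fold, with DICER1 at -1.30 and DDX17 at -1.12 the lowest of them, and TRIM71 lies at -4.78.

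Across the transcriptome the medians of genes grouped by seed matches lay close together, apart from that of the smallest group. Over 12426 protein-coding genes with at least 50 reads, the median log2 ratio was 0.03 for 11026 genes without a match, 0.00 for 1227 genes with 1 match, and -0.10 for 173 genes with 2 or more. The share called lower was 7.29%, 8.15% and 11.6% in that order. The 547 genes with any 8-mer had a median of -0.05, with 9.87% lower and 8.23% higher. The smallest group, 26 genes with 2 or more 8-mers, had a median of -0.48 with 7 genes (26.9%) lower and 2 higher.

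The 26 genes include members chosen on this contrast. Without the members, 24 genes were left with a median of -0.36, 6 of them lower and 2 higher, and the 540 other genes with any 8-mer had a median of -0.04. Genes with matches have longer 3' UTRs, with a median of 3351 bases for any 8-mer against 1224 for no match. Among genes with 3' UTRs of up to 1000 bases, 3.70% of the 54 with an 8-mer and 6.55% of the 4853 without a match were lower. The shares were 8.74% and 7.57% from 1000 to 2000 bases, 12% and 7.95% from 2000 to 4000 bases, and 10.3% and 8.35% over 4000 bases. The share was thus higher with an 8-mer in 3 of the 4 ranges and lower in the shortest, where 2 genes make up the 3.70%. The ranges were not run without the members, and those called lower are counted in the 3 longer ones. SALL4 lies in the range from 1000 to 2000 bases, LIN28A, IGF2BP3 and HMGA2 from 2000 to 4000, and LIN28B over 4000. Nothing is therefore read from these shares.

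**Figure D4:**
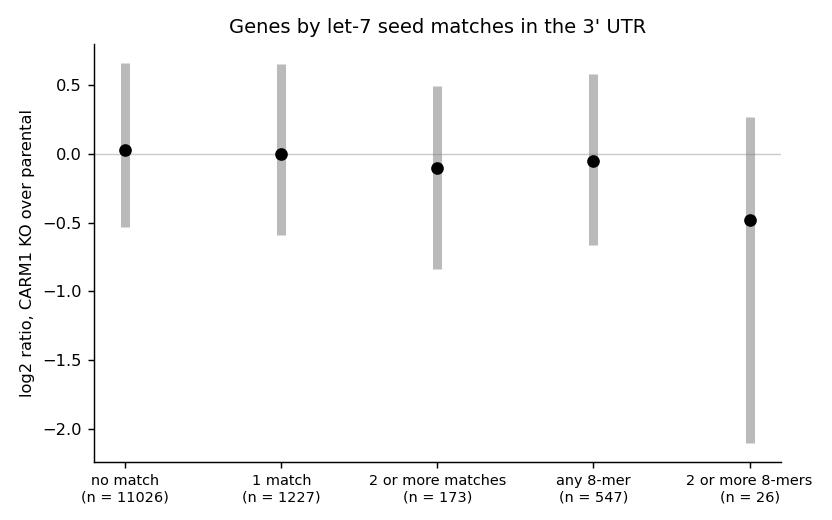
Points are median log2 ratios of CARM1 KO over parental (prior count of 2) and grey bars run from the lower to the upper quartile, for protein-coding genes grouped by let-7 seed matches in the 3' UTR. Medians lie between 0.03 and -0.10 in all classes except that of 2 or more 8-mers, at -0.48 with 26 genes.

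The genes richest in 8-mers were also described. Of the 9 genes with 3 or more, 4 were lower, 1 was higher and 4 were neither, with IGF2BP1 among the last. For scale, 9.21% of protein-coding genes with at least 10 reads were lower and 12.7% were higher. The lower ones were TRIM71, FIGN (2109 and 440 reads), IGDCC3 (89 and 8 reads) and FIGNL2 (57 and 0 reads, at least 19.5-fold lower against 3 reads). SDR42E1 was higher, with 35 and 368 reads. MFSD4B and SMC1A had ratios of 2.69-fold and 2.21-fold lower, under the threshold. These genes were taken for their number of matches. They still include IGF2BP1, a member chosen on this contrast, and TRIM71, from lists fixed with earlier results known. Nothing is therefore read from their counts.

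Transcripts known to be bound by IGF2BP proteins went both ways, with 2 of 12 lower, 3 higher and a median log2 ratio of -0.10. H19, a fetal long noncoding RNA that IGF2BP proteins bind, had 14412 and 0 reads, at least 4919-fold lower against a floor of 3. GLI1, a Hedgehog pathway transcription factor gene, had 367 and 6 reads (62.6-fold lower, 28.5 to 172). The higher transcripts were CD44, a hyaluronan receptor, with 2407 and 10946 reads, ABCB1, a drug efflux pump, with 57 and 289 reads, and LEF1, a WNT pathway factor, with 6 and 50 reads. IGF2, which gave the family its name, had 1 read in each library. The transcripts with the most reads, ACTB (60590 and 81494 reads), CTNNB1 (11901 and 15140 reads) and MKI67 (9126 and 12488 reads), did not pass 3-fold.

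Other oncofetal and pluripotency genes were measured beside the members. Of 6 oncofetal markers with enough reads, H19, GPC3 and PEG10 were lower and 0 were higher, with a median log2 ratio of -1.86; 1 of the 6 is the member IGF2BP1. GPC3, a fetal liver glypican, had 7659 and 468 reads (16.8-fold lower, 15.3 to 18.4), and PEG10, a gene derived from a retrotransposon, had 25234 and 5641 reads (4.58-fold lower, 4.45 to 4.72). AFP, the fetal liver serum protein, had 11 and 28 reads, and the trophoblast glycoprotein gene TPBG had 509 and 490 reads. Neither of these passed 3-fold.

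Few reads were counted for pluripotency genes in either library, and 5 of 14 had enough. SOX2 was lower, with 55 and 3 reads (18.8-fold, 6.10 to 93.8), and KLF4 was higher, with 18 and 76 reads (4.12-fold, 2.44 to 7.33). DNMT3B had 904 and 442 reads and POU5F1 19 and 8 reads, neither past 3-fold. NANOG, with 8 and 0 reads, was below the minimum. LIN28A, which embryonic stem cells express with these factors, was thus measured in parental cells in which POU5F1 and NANOG had at most 19 reads.

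Paralogs of the members outside the list were mostly near their parental level, with 1 of 9 lower, 0 higher and a median log2 ratio of -0.20. The lower paralog was SALL2, related to SALL4, with 900 and 259 reads (3.56-fold, 3.10 to 4.10). The paralogs of DIS3L2, DIS3 and DIS3L, had 4838 and 5177 reads and 1994 and 1413 reads. Among other high mobility group genes, HMGB1 had 26907 and 22223 reads and HMGN2 13240 and 12829 reads, and 0 of the 5 measured passed 3-fold.

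The position of the members was described by the 5 expressed protein-coding genes on each side. Over 100 such neighbours 10 were lower and 15 were higher, close to the 9.21% and 12.7% of all protein-coding genes with at least 10 reads. LIN28A, with a log2 ratio of -10.37, lay among neighbours with a median of 0.12. The outermost of these on one side, FAM110D, had 243 and 4 reads (62.2-fold lower), the lowest log2 ratio of the 100 neighbours at -5.38. SALL4 lay among neighbours of which 0 passed 3-fold in either direction, with a median of -0.14. IGF2BP3 had neighbours with a median of 0.58, of which 0 were lower and 2 were higher. HMGA1 had a ratio of 0.77 on this scale beside a neighbour median of 0.73.

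LIN28B and HMGA2 were the members called lower that had several lower neighbours. HACE1 and BVES, the genes on either side of LIN28B, had 4614 and 904 reads (5.23-fold lower) and 2171 and 365 reads (6.09-fold lower), and GRIK2 had 54 and 1 reads. The median of the 10 neighbours of LIN28B was -0.96 against its own -10.42, and SIM1 and CRYBG1 were higher. Around HMGA2 the WNT inhibitor gene WIF1 (181 and 6 reads), MSRB3 (5626 and 1774 reads) and TMBIM4 (1253 and 358 reads) were lower and 2 genes were higher, with a median of -0.28. Copy number was not measured here.

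**Figure D5:**
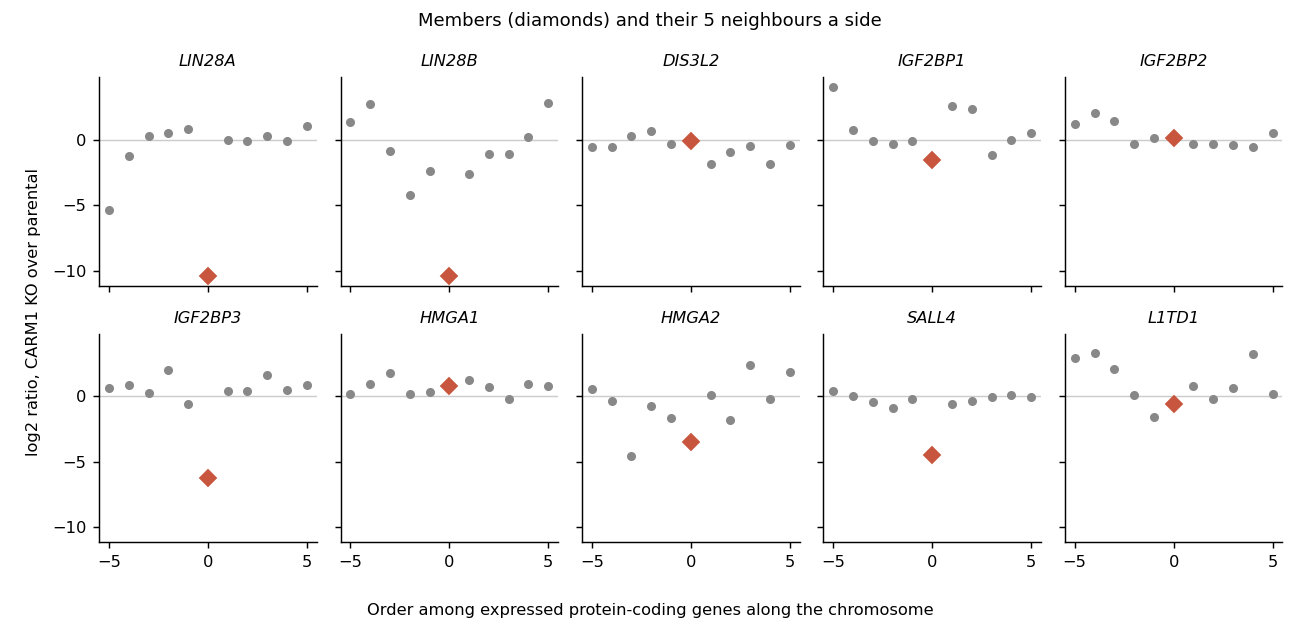
Each panel shows a member (red diamond) and 5 expressed protein-coding neighbours on each side (grey), in their order along the chromosome, against log2 ratio of CARM1 KO over parental with a prior count of 2. LIN28A, LIN28B, IGF2BP1, IGF2BP3 and SALL4 stand below all 10 of their neighbours. The neighbours include FAM110D at -5.38 by LIN28A and GPNMB at 1.97 by IGF2BP3. The genes on either side of LIN28B are also below 0.

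Reads of overlapping genes and copies could enter the members' counts, since the use of strand in counting is not given in the sources used here. The annotation holds 22 genes that overlap a member, of which MALSU1, on the strand opposite IGF2BP3, had the most reads (929 and 624). RPSAP52 and HMGA2-AS1, opposite HMGA2, had 23 and 6 reads and 6 and 3 reads, and LIN28B-AS1 had 1 and 2 reads. Of 16 named copies of members 13 had 0 reads in both libraries, and the largest, HMGA1P4, had 10 and 3 reads. LIN28A had no overlapping gene in the annotation, and its copies LIN28AP1 and LIN28AP2 had 0 reads in both libraries.

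Over these 2 libraries, the protein-coding gene closest to each lower member in its pair of log2 levels was SPOCK2 for LIN28A (12210 and 6 reads, distance 0.51), UNC13C for LIN28B (5286 and 3 reads, 0.66), HOXB9 for IGF2BP3 (2600 and 37 reads, 0.12), MEST for HMGA2 (24427 and 1941 reads, 0.43) and SERPINF1 for SALL4 (1839 and 72 reads, 0.13). Distance is Euclidean, in log2 CPM with a prior count of 2.

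The libraries differed widely beyond the members. The parental library totalled 30741953 reads and the CARM1 KO library 32300391, and CARM1 itself had 975 and 380 reads, a ratio of 2.63-fold lower (2.33 to 2.97); an edit that breaks a reading frame need not remove the transcript. Of 8 ovarian and epithelial markers with enough reads 6 were higher and 1 was lower, their summed level going from 1412 to 4751 CPM, and PAX8 (311 and 1149 reads), EPCAM (249 and 848 reads) and KRT8 (17600 and 70370 reads) were present in both libraries. MUC16 had 0 and 1 reads and WT1 8 and 1, so these defining markers were near 0 in both. Of 6 fibroblast markers 4 were lower and 1 was higher, and their summed level went from 570 to 21.6 CPM, most of the parental sum being COL1A2 with 16732 and 3 reads. Of 5 blood and endothelial markers found, 2 of the 2 with enough reads were higher, CD68 (400 and 1644 reads) and CD14 (1 and 9 reads). The summed level of the markers went from 13.1 to 51.9 CPM, nearly all of it CD68, at 12.8 and 51.6 CPM. PTPRC had 6 and 0 reads, VWF 1 and 2, and CD3E 0 in both libraries. These lists moved between the same libraries as the members, and their part in the members' values was not tested.

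How far a larger spread between libraries would change the members' calls was described with edgeR's exact test at an assumed coefficient of variation of 0.4. At an FDR under 0.05 and a ratio above 3 it called 4.78% of all genes tested lower and 2.93% higher, and the same 5 members lower. This test compares the libraries under a spread that was assumed and not measured, and it is no evidence on the conditions.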

How the data were processed

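RNA-seq of 1 parental and 1 CARM1 KO library of A1847 cells was used. Total RNA libraries were made with the ScriptSeq Complete Gold kit and sequenced as paired-end reads. The authors aligned reads to hg19 and estimated gene counts with RSEM (version 1.2.3 per the labels), and deposited these expected counts, given as whole numbers and not normalized. Reads that fit several genes are divided by RSEM, so near-identical copies are uncertain. The aligner version, the annotation release and the use of strand are not given in the sources used here.

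Symbols were matched by Ensembl identifier to GENCODE 44 lifted to GRCh37 (55501 of 57736; 2235 unmatched). Counts were scaled by TMM in edgeR 4.0.16 (R 4.3.3). Exact 95% binomial intervals came from scipy 1.17.1. With 1 library per group no spread can be estimated, and the quasi-likelihood test of edgeR could not be run, so a gene was called at a ratio above 3 with at least 10 reads. A 0 was set against 3 reads. Medians used a prior count of 2. Seed classes and neighbours were limited to genes with at least 50 reads. RPKM was computed here from canonical transcript lengths, and percentiles are among protein-coding genes tested. The steps were tested on simulated data.

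The members, gene lists and tests were chosen with earlier results of these data known. Genes named are the members, CARM1, list genes past 3-fold and otherwise up to 4 per list with the most reads, overlapping genes and copies, and the gene nearest each lower member. Other genes, including neighbours, the 8-mer-rich genes, and further list members such as TUT4, MYC, DIS3L and AFP, were named after their values were seen. PECAM1 was not matched in the table. The values of some genes that fall under these choices are not reported here. Sequences came from GRCh37, with microRNAs and promoters from RefSeq. Alternatives were other scalings (DESeq2 1.42.0 size factors among them), read minimums, a prior count, intervals wholly beyond 3-fold, and edgeR's exact test at assumed coefficients of variation of 0.12 and 0.4. Seed classes without members or by 3' UTR length were added after seeing the data.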

Additional observations from a re-analysis of the deposited data

How the results depend on the processing

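The same number of members, 5, was lower under every alternative run, and 0 log2 ratios of members changed direction under the other scalings, which moved them by at most 0.04. That of HMGA1 was 0.73 with library size only. The median over all genes moved between -0.06 and 0.00 with the scaling. The count of all genes past 3-fold, 4547, depended most on the filter and the call. It was 10639 with no filter, 2868 with at least 50 reads, 2526 where the whole interval lay beyond 3-fold, and 1431 at a coefficient of variation of 0.4. With no filter, the let-7 host transcripts past 3-fold went from 1 to 2, pluripotency genes from 2 to 6 and oncofetal markers from 3 to 5. At a coefficient of variation of 0.4, IGF2BP bound transcripts went from 5 to 2, pluripotency genes to 1, let-7 target genes from 8 to 6 with 0 higher, member paralogs from 1 to 0, ovarian and epithelial markers from 7 to 3, and blood and endothelial markers from 2 to 0. Blood and endothelial markers gave 1 with at least 50 reads, by the interval and at 0.12, and pluripotency genes gave 1 by the interval. The cause of these moves was not tested. The median log2 ratio of genes without a seed match was -0.0028 with library size only and 0.068 with DESeq2 size factors. No paired analysis was possible because each group is 1 library, and no library could be left out. Depth limits L1TD1, LIN28A and LIN28B in CARM1 KO cells and the let-7 loci, which had from 0 to 12 reads there.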
